A study of Mus musculus with 12 samples.

Results

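The spleen RNA described here is that of 10 mouse genes expressed by marginal zone and tissue macrophages: Siglec1, Marco, Cd209b, Nr1h3, Timd4, Cd5l, Axl, Mertk, Adgre1 and Mrc1. They were chosen by gene symbol, as receptors of metallophilic and marginal zone macrophages and genes of dead cell clearance, out of 18221 genes in the deposited tables. The study asked how intestinal microbiota from mice given alginate oligosaccharide (AOS, a seaweed-derived sugar chain) acts on a spleen damaged by busulfan, an alkylating drug that kills dividing blood-forming cells. RNA was sequenced from the spleens of 12 male ICR mice, 3 in each of 4 groups, and each value is a read density scaled by transcript length and library size (RPKM). The Con-sa mice received saline and no busulfan. The B-sa mice received a single injection of busulfan at 40 mg/kg and then saline. The B+Con-FMT mice received the same busulfan and then fecal microbiota transplantation (FMT) from control donor mice dosed with water. The B+A10-FMT mice received busulfan and FMT from donors dosed with AOS at 10 mg/kg for 3 weeks. FMT was given by mouth at 0.1 mL a day for 2 weeks, the mice were 3 weeks old at the start and 8 weeks old at collection, and the donor material was pooled small intestinal content. There was no group given FMT without busulfan among these samples, so FMT values apply to busulfan-treated mice. The labels number the mice 1 to 3 within each group, and each number in a different group belongs to a different mouse.

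The spleen filters blood, and its marginal zone, the border between the lymphoid white pulp and the blood-filled red pulp, holds specialised macrophages. Metallophilic macrophages carry Siglec1 (CD169, the MOMA-1 antigen), a lectin that binds sialic acid on particles and cells. Marginal zone macrophages carry the scavenger receptor Marco and the C-type lectin Cd209b (SIGN-R1), which bind blood-borne bacteria and microbial sugars. Nr1h3 encodes the liver X receptor LXR-alpha, a sterol-sensing nuclear receptor that splenic marginal zone macrophages require. Timd4, Axl and Mertk encode receptors by which macrophages recognise phosphatidylserine on dying cells, Timd4 directly and Axl and Mertk through the bridging ligands Gas6 and protein S. Adgre1 encodes F4/80, the usual red pulp macrophage antigen in mice.

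The 10 genes were all measured well above the low-value filter (3 or more mice at RPKM 1 or higher), and all 10 passed it. Their mean level over the 12 mice, compared per length as RPKM, ran from 10.26 for Mertk to 72.98 for Marco, and these lay at the 43.7th and 91.2nd percentiles of the 12671 genes tested. Between them stood Siglec1 at 11.01, Cd209b at 13.71, Mrc1 at 16.82, Adgre1 at 16.91, Nr1h3 at 21.51, Cd5l at 26.08, Timd4 at 32.68 and Axl at 53.03 RPKM. Each of the 10 had its highest group mean in B+A10-FMT. For 8 of the 10 the lowest group mean was that of B+Con-FMT, and for Nr1h3 and Adgre1 it was that of B-sa. Both transplant groups had busulfan, so B+A10-FMT against B+Con-FMT compares the 2 pools of donor material. Donor content was pooled by group, so the 3 recipients of a group do not replicate the donors.

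**Figure D1:**
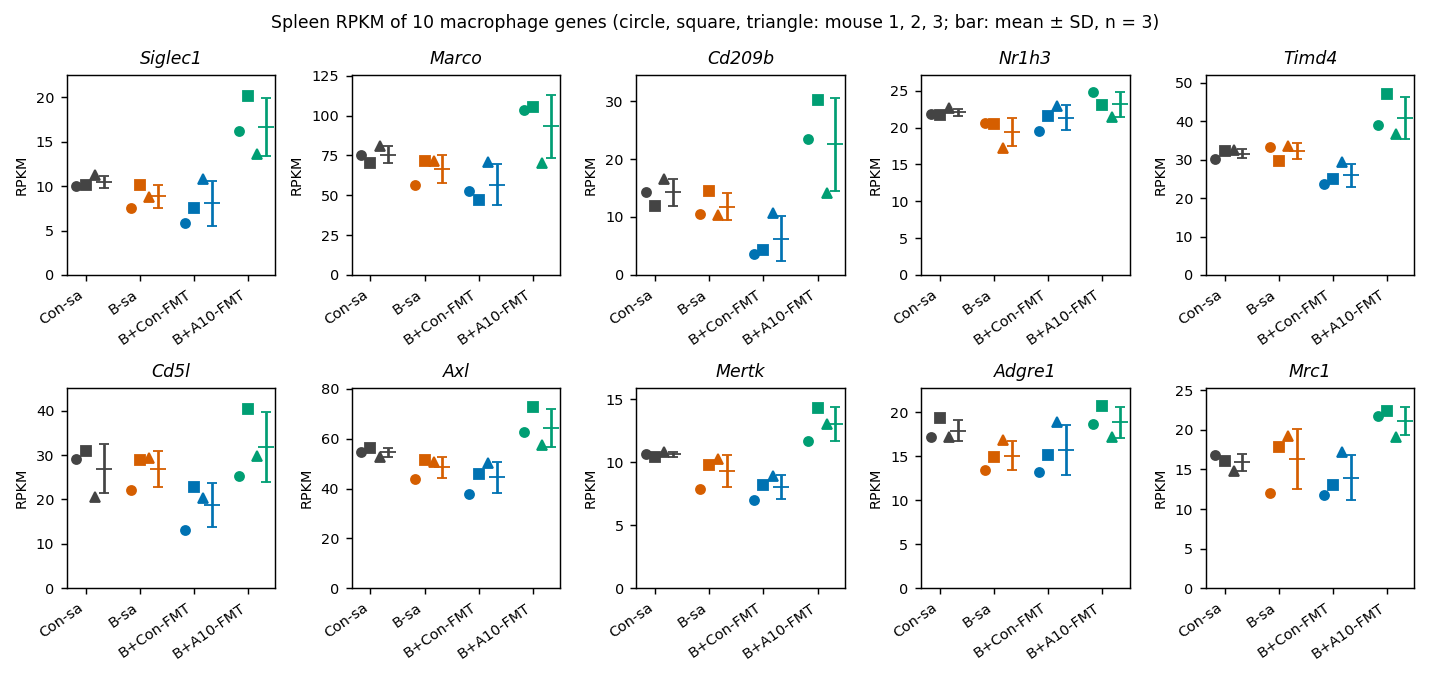
RPKM (vertical axes, each starting at 0) of the 10 genes in every mouse of the 4 groups. Circles, squares and triangles are mice 1, 2 and 3 of a group, and the bars give the group mean ± SD (n = 3). The B+A10-FMT mean is the highest of the 4 in every panel, and the 3 B+A10-FMT mice differ most, relative to their mean, for Marco, Cd209b and Cd5l.

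Against B+Con-FMT, 7 of the 10 rose in B+A10-FMT by limma's moderated test (adjusted p under 0.05 by the Benjamini-Hochberg method over all 12671 genes), where 7.58% of all genes tested were called higher. The 7 were Siglec1, Marco, Cd209b, Timd4, Mertk, Axl and Mrc1, while Nr1h3, Cd5l and Adgre1 did not pass. The median log2 fold change of the 10 was 0.63, against 0.05 for all genes. Every B+A10-FMT mouse lay above every B+Con-FMT mouse for 7 genes (Siglec1, Cd209b, Timd4, Cd5l, Axl, Mertk and Mrc1), a separation seen in 23.8% of all genes. An exact two-sided permutation test of 3 mice against 3 gave p = 0.1 for each of those 7, the smallest p that this design allows. All changes below are on the log2(RPKM + 1) scale, which understates the change of genes at low levels.

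**Figure D2:**
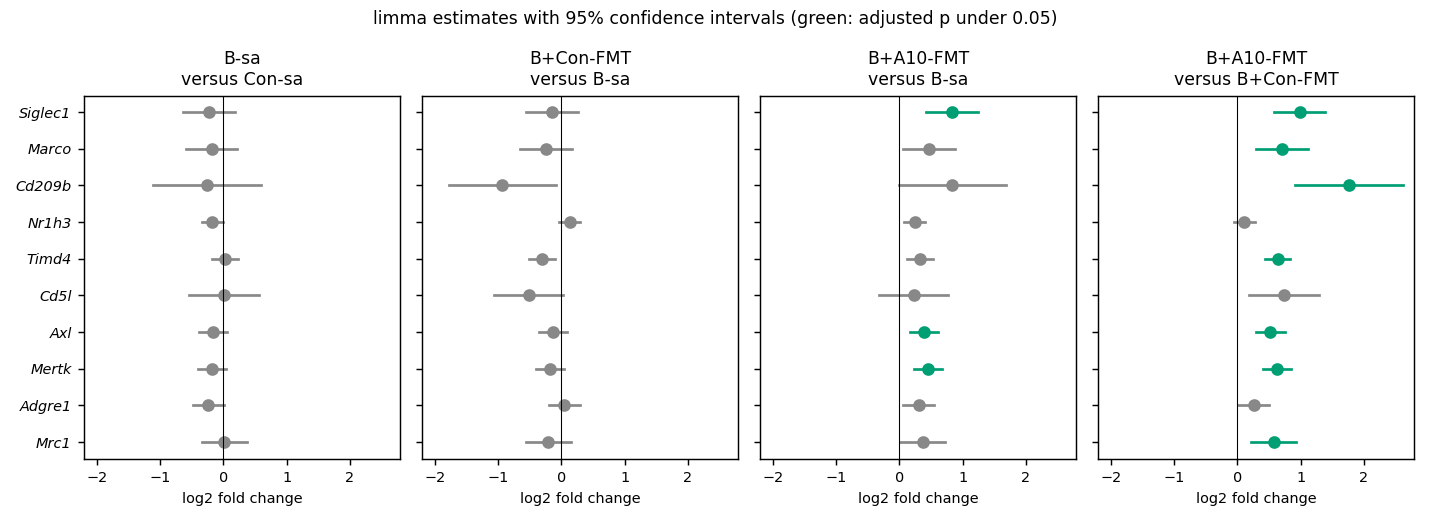
Log2 fold changes (horizontal axes, log2(RPKM + 1) scale) of the 10 genes in 4 comparisons, with 95% confidence intervals from limma. Green marks an adjusted p under 0.05, which 0, 0, 3 and 7 genes reached from left to right.

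Siglec1 (chr2:131067801-131086778, GRCm38) read 10.06, 10.16 and 11.21 RPKM in the Con-sa mice and 7.56, 10.16 and 8.83 in the B-sa mice. It read 5.87, 7.52 and 10.77 in the B+Con-FMT mice and 16.17, 20.18 and 13.62 in the B+A10-FMT mice. The 3 B+A10-FMT mice were the 3 highest of the 12, and the other groups overlapped each other. In B+A10-FMT the log2 fold change was 0.98 ± 0.19 (SE, n = 3 mice per group) against B+Con-FMT (limma adjusted p = 0.0122) and 0.83 ± 0.19 against B-sa (adjusted p = 0.0314). Without B+A10-FMT mouse 2 the first came to 0.84 (limma adjusted p = 0.0551). The second was called in 6 of the 12 fits that left out a mouse, and was lost without Con-sa mouse 1, B-sa mice 1, 2 or 3, or B+A10-FMT mice 1 or 2, where limma's adjusted p reached 0.107.

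Marco (chr1:120474538-120505024) read 75.24, 70.37 and 80.69 RPKM in Con-sa, 56.36, 71.72 and 71.64 in B-sa, 52.35, 46.83 and 70.90 in B+Con-FMT, and 103.71, 105.55 and 70.41 in B+A10-FMT. B+A10-FMT mice 1 and 2 stood above all the others, but mouse 3 lay just under the highest B+Con-FMT mouse, so these groups overlapped. The log2 fold change of B+A10-FMT over B+Con-FMT was 0.71 ± 0.18 (limma adjusted p = 0.0394). That call held in 5 of the 12 fits that left out a mouse, and was lost without any Con-sa mouse, B+Con-FMT mice 1 or 2, or B+A10-FMT mice 1 or 2 (limma adjusted p up to 0.141, at a log2 fold change of 0.61). Against B-sa the log2 fold change was 0.47 ± 0.18 and did not pass (limma adjusted p = 0.154).

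Cd209b (chr8:3917655-3926841) had the largest difference of the 10. It read 14.35, 11.86 and 16.52 RPKM in Con-sa and 10.52, 14.51 and 10.30 in B-sa. In the B+Con-FMT mice it read 3.67, 4.33 and 10.68, against 23.43, 30.15 and 14.16 for B+A10-FMT. Mice 1 and 2 of B+Con-FMT were the lowest of the 12 and mice 1 and 2 of B+A10-FMT the highest, whereas mouse 3 of each transplant group lay within the range of the saline groups. The B+Con-FMT mean was 6.23 ± 3.87 RPKM and the B+A10-FMT mean 22.6 ± 8.03 RPKM (SD, n = 3). Between them the log2 fold change was 1.77 ± 0.37 (limma adjusted p = 0.0249), a 3.41-fold difference with a 95% interval of 0.92 to 2.62 on the log2 scale. Only 0.0158% of genes tested had a larger one. The call was lost without B+Con-FMT mouse 1 (1.52), B+Con-FMT mouse 2 (1.61), B+A10-FMT mouse 1 (1.71) or B+A10-FMT mouse 2 (1.54), with limma adjusted p up to 0.0942. Cd209b belongs to a cluster of related lectin genes. Of these, Cd209a, Cd209c and Cd209d had means of 10.6, 6.21 and 3.11 RPKM in B+A10-FMT and 10.5, 5.66 and 2.38 in B+Con-FMT. Reads that match several genes of the cluster could be counted for each, and their part in the Cd209b values was not tested. The study's methods name a SOAPaligner setting that reports every place where such a read maps, whereas the submitters' processing notes name other aligners, and how these hits entered the RPKM is not given in the sources used here.

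The stretch upstream of the transcription start is shown for 4 of these genes: Marco and Mrc1, which hold a PU.1-type motif, Cd209b, which differed most, and Timd4, whose call was kept under every alternative tried. The sequences are RefSeq promoters of GRCm38.p6, cut to the 250 bases before the start and written 5′ to 3′ on the gene's strand. Capitals mark matches on either strand to GAGGAA, the core bound by PU.1, the master transcription factor of macrophages, or to AGGTCA, the hexamer recognised by nuclear receptors.
Marco, chr1:120505025-120505274, minus strand: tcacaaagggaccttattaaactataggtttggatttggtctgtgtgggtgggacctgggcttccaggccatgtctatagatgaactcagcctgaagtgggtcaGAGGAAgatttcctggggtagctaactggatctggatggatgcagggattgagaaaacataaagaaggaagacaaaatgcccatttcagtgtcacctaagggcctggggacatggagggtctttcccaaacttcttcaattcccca
Cd209b, chr8:3926842-3927091, minus strand: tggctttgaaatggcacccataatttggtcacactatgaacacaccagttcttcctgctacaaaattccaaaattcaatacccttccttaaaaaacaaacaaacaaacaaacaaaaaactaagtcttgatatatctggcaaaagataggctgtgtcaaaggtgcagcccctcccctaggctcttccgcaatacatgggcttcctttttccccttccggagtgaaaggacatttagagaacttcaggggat
Mrc1, chr2:14229164-14229413, plus strand: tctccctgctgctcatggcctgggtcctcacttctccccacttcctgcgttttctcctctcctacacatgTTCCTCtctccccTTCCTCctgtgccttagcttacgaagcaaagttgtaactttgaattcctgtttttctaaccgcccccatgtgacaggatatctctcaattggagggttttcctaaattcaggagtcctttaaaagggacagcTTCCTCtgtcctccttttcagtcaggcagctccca
Timd4, chr11:46810549-46810798, plus strand: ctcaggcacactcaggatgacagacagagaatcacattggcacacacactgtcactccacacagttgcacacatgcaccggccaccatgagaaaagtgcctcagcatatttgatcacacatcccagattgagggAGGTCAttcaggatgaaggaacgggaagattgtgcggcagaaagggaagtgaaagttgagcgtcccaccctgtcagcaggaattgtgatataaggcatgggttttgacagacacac

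Of the 10 genes, 8 were in the promoter table, with 9 windows because Nr1h3 has 2 starts, and Siglec1 and Adgre1 were not. GAGGAA was present in 4 of the 8 genes (Marco, Mrc1, Cd5l and Axl), 1 match each except 3 in Mrc1, and in 23.3% of the 32841 windows of the same length over all genes. AGGTCA was found in Timd4 alone, against 14% of all windows. The other motifs occurred in none of the 9 windows: the interferon element (2 copies of GAAA 2 bases apart, in 2.98% of all windows), the AP-1 motif TGANTCA (6.75%) and the LXR repeat (2 copies of AGGTCA 4 bases apart, 0.0152%), which contains the hexamer. Both strands were searched. These are matches of letters and not bound sites.

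Among the clearance receptors, Timd4 (chr11:46810786-46844333), the phosphatidylserine receptor of resident macrophages, gave the lowest adjusted p of the 10. It read 30.23, 32.16 and 32.47 RPKM in Con-sa, 33.34, 29.75 and 33.59 in B-sa, 23.64, 24.86 and 29.33 in B+Con-FMT, and 38.96, 47.13 and 36.67 in B+A10-FMT. The B+Con-FMT mice were the 3 lowest of the 12 and the B+A10-FMT mice the 3 highest. The log2 fold change between the transplant groups was 0.64 ± 0.09 (limma adjusted p = 0.00325), and it was called without any single mouse as well (log2 fold change 0.53 to 0.72). Against B-sa, B+A10-FMT was higher by 0.33 ± 0.09 with no overlap, and this missed the threshold (limma adjusted p = 0.0594).

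Mertk (chr2:128698915-128803162), a receptor tyrosine kinase that drives engulfment, read 10.65, 10.43 and 10.78 RPKM in Con-sa and 7.85, 9.82 and 10.29 in B-sa. It read 7.03, 8.21 and 8.93 in B+Con-FMT and 11.68, 14.35 and 13.07 in B+A10-FMT. The B+A10-FMT mice were again the 3 highest, and the B+Con-FMT mice lay below every Con-sa mouse. Over B+Con-FMT, Mertk in the B+A10-FMT mice had a log2 fold change of 0.63 ± 0.10 (limma adjusted p = 0.00486), which was called in all 12 fits without a mouse. Over B-sa it was 0.45 ± 0.10 (limma adjusted p = 0.0299), a call held in 8 of those 12 fits and lost without B-sa mice 1 (0.34) or 2 (0.48), or B+A10-FMT mice 2 (0.38) or 3 (0.44).

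Axl (chr7:25756500-25788924), the related kinase, read 54.64, 56.49 and 52.77 RPKM in Con-sa, 43.81, 51.29 and 50.73 in B-sa, 37.81, 45.69 and 50.15 in B+Con-FMT, and 62.56, 72.76 and 57.60 in B+A10-FMT. All 3 B+A10-FMT mice exceeded all the other mice. The log2 fold change was 0.52 ± 0.10 against B+Con-FMT (limma adjusted p = 0.0122; 0.43 and 0.0591 without B+A10-FMT mouse 2). Against B-sa it was 0.39 ± 0.10 (limma adjusted p = 0.048), called in 3 of 12 fits without a mouse, namely those without B+Con-FMT mice 1 or 3 or B+A10-FMT mouse 3. In the other 9 fits the log2 fold change was 0.30 to 0.43 and limma's adjusted p reached 0.16.

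The transcript that carries the signal differed among these genes. Predicted (XM) RefSeq models held nearly all Axl RPKM, with 1.57% on curated (NM) transcripts, and 89.4% of Mertk RPKM stood on 1 predicted model. With curated transcripts only, Axl was at -0.07 between the transplant groups and Mertk at 0.93 (limma adjusted p = 0.0558). For Siglec1, 98.6% of RPKM lay on 1 curated transcript, and Marco, Cd5l and Mrc1 have a single transcript each in the tables. Nr1h3 was spread over 5 transcripts, the largest with 35.7%.

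Mrc1 (chr2:14229414-14332023), the mannose receptor CD206, read 16.78, 16.11 and 14.77 RPKM in Con-sa, 12.07, 17.78 and 19.22 in B-sa, 11.75, 13.01 and 17.14 in B+Con-FMT, and 21.76, 22.40 and 19.06 in B+A10-FMT. The transplant groups did not overlap, while B-sa spanned the widest range and reached into B+A10-FMT. The log2 fold change between the transplant groups was 0.57 ± 0.16 (limma adjusted p = 0.0469). This call was held in 3 of 12 fits without a mouse (those without B-sa mice 1 or 3 or B+Con-FMT mouse 3), and in the others limma's adjusted p reached 0.152, at log2 fold changes of 0.47 to 0.64.

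Cd5l (chr3:87357881-87371074), a secreted macrophage survival protein, read 29.03, 31.01 and 20.65 RPKM in Con-sa, 22.10, 28.98 and 29.38 in B-sa, 13.08, 22.84 and 20.31 in B+Con-FMT, and 25.19, 40.44 and 29.90 in B+A10-FMT. Its transplant groups did not overlap, but the mice of each differed widely, and a log2 fold change of 0.74 ± 0.24 did not pass (limma adjusted p = 0.0835).

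Nr1h3 (chr2:91184061-91202829) had the smallest difference between the transplant groups. It read 21.86, 21.72 and 22.62 RPKM in Con-sa, 20.64, 20.48 and 17.26 in B-sa, 19.59, 21.64 and 22.87 in B+Con-FMT, and 24.81, 23.11 and 21.50 in B+A10-FMT. The transplant groups overlapped, with a log2 fold change of 0.11 ± 0.08 (limma adjusted p = 0.367; 95% interval -0.06 to 0.28).

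Adgre1 (chr17:57358581-57483529) read 17.25, 19.32 and 17.20 RPKM in Con-sa, 13.50, 14.96 and 16.82 in B-sa, 13.21, 15.15 and 18.86 in B+Con-FMT, and 18.69, 20.72 and 17.25 in B+A10-FMT. Its transplant groups overlapped, and B+A10-FMT was above B-sa without overlap. The log2 fold changes of B+A10-FMT were 0.26 ± 0.11 over B+Con-FMT (limma adjusted p = 0.157; 95% interval 0.01 to 0.51; 0.39 and 0.0363 without B+Con-FMT mouse 3) and 0.31 ± 0.11 over B-sa (adjusted p = 0.128).

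Each gene was also divided by Adgre1 in the same mouse, a measure chosen after the values were seen, because Adgre1 differed less than most of the others between the transplant groups. The ratios to follow therefore restate that difference, share 1 denominator and are no independent support for it. Adgre1 had instead, in B-sa against Con-sa, the second most negative log2 fold change of the 10 (-0.24), so ratios there rest on its lower level in B-sa. Of the 9 ratios, 7 were higher in every B+A10-FMT mouse than in every B+Con-FMT mouse, against 1.98% of all genes taken relative to Adgre1 in the same way. The Siglec1 to Adgre1 ratio was 0.865, 0.974 and 0.790 in B+A10-FMT and 0.444, 0.496 and 0.571 in B+Con-FMT, and it was 0.587 ± 0.063 in Con-sa (SD, n = 3). It was the only ratio of the 9 for which the B+A10-FMT mice stood above both saline groups without overlap. Cd209b to Adgre1 was 0.278, 0.286 and 0.566 in B+Con-FMT, below all mice of both saline groups, and 1.25, 1.46 and 0.821 in B+A10-FMT. Against B-sa, 6 ratios were lower in every B+Con-FMT mouse (Marco, Cd209b, Timd4, Cd5l, Axl and Mertk), against 5.11% of all genes, and exact two-sided permutation p was 0.1 for each, the smallest possible. Before division only Timd4 had this separation and limma called none of the 10, so the other separations depend on the shared denominator. Over Con-sa, 4 ratios were higher in every B+A10-FMT mouse (Siglec1, Timd4, Axl and Mrc1; 3.29% of all genes), and over B-sa 1 (Siglec1; 0.852%). The Cd209b ratio was the 1 lower in every B+Con-FMT mouse than in every Con-sa mouse (2.16%), and the Timd4 ratio the 1 higher in every B-sa mouse than in every Con-sa mouse (28.2%). Nr1h3 to Adgre1 overlapped in all 6 comparisons. In whole spleen RNA, fewer cells of a type and less RNA per cell cannot be told apart.

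**Figure D3:**
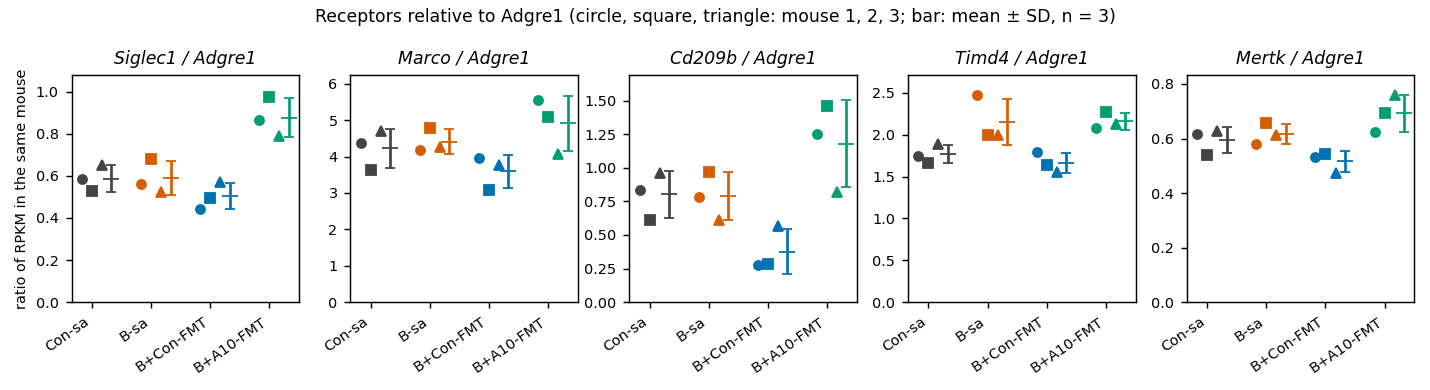
Ratio of the RPKM of 5 genes to the RPKM of Adgre1 in the same mouse (vertical axes, from 0), by group. Circles, squares and triangles are mice 1, 2 and 3, and bars are the mean ± SD (n = 3). In each panel the 3 B+A10-FMT mice lie above the 3 B+Con-FMT mice.

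The other comparisons held fewer calls. Busulfan with saline against Con-sa gave none of the 10 (limma), where 14.5% of all genes tested were called, and 1 gene, Nr1h3, had an unadjusted p under 0.05. For 4 genes the groups did not overlap (Nr1h3, Axl, Mertk and Adgre1, each lower in B-sa), and 22.8% of all genes were lower without overlap. The log2 fold changes ran from -0.26 for Cd209b to 0.03 for Timd4, and their median was -0.18, where all genes had -0.04. The intervals leave room for larger differences in the marginal zone genes, as for Cd209b (-1.11 to 0.59) and Siglec1 (-0.64 to 0.18).

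B+Con-FMT against B-sa gave no call among the 10 either (limma), with 0.844% of all genes called, and Cd209b and Timd4 had an unadjusted p under 0.05. Cd209b was at -0.93 ± 0.37 (limma adjusted p = 0.238) and Timd4 at -0.31 ± 0.09 (adjusted p = 0.126). Timd4 was the 1 gene lower in every B+Con-FMT mouse, a separation shared by 9.05% of all genes.

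B+A10-FMT against B-sa gave 3 calls, all higher (Siglec1, Mertk and Axl), where 5.27% of all genes were called in either direction. The 10 log2 fold changes were all above 0, from 0.22 for Cd5l to 0.84 for Cd209b, and their median was 0.38, where all genes had 0.05. Cd209b had a wide interval (-0.01 to 1.69; limma adjusted p = 0.21). In all, 6 genes (Siglec1, Nr1h3, Timd4, Axl, Mertk and Adgre1) were higher in every B+A10-FMT mouse, as were 19.7% of all genes. No call was left without B-sa mouse 1, B-sa mouse 2 or B+A10-FMT mouse 2, and 1 was left without Con-sa mouse 1, B-sa mouse 3 or B+A10-FMT mouse 1. Over all genes, calls went from 668 to 832, 141 and 106 in the first 3 of these fits and to 406, 468 and 272 in the other 3, in that order. The comparisons share mice: each of the 4 groups stands in 3 of the 6, so the values of the comparisons are not independent of each other.

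Against Con-sa, B+A10-FMT gave no call among the 10 (limma; 0.410% of all genes called), and Siglec1, Timd4, Axl, Mertk and Mrc1 had an unadjusted p under 0.05. Siglec1 had a log2 fold change of 0.61 ± 0.19 (limma adjusted p = 0.219) and that of Timd4 0.35 ± 0.09 (adjusted p = 0.145). These 5 genes were also higher in every B+A10-FMT mouse than in every Con-sa mouse, as were 11.7% of all genes. B+Con-FMT against Con-sa gave 1 call, Mertk lower by 0.36 ± 0.10 (a log2 fold change of -0.36, limma adjusted p = 0.0452), where 6.57% of all genes were called lower. Cd209b was at -1.19 ± 0.37 in that comparison (limma adjusted p = 0.0823). A set of 4 genes (Cd209b, Timd4, Axl and Mertk) were lower in every B+Con-FMT mouse, against 23.6% of all genes. The Mertk call was lost without Con-sa mice 1, 2 or 3, B+Con-FMT mice 1 or 2, or B+A10-FMT mouse 3 (limma adjusted p up to 0.142). Without B+Con-FMT mouse 3, Cd209b (-1.60, limma adjusted p = 0.0229) and Timd4 (-0.37, 0.0461) were called as well.

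Most of the 10 genes varied together within groups: over their 45 pairs, Pearson's r of the deviations from the group means of the 12 mice had a median of 0.67. Nr1h3 differed by partner, with r of 0.64 with Cd209b, 0.50 with Siglec1 and 0.34 with Marco, but -0.13 with Mertk, -0.01 with Cd5l, 0.02 with Mrc1 and 0.16 with Adgre1, and Marco with Cd5l had 0.14. Mouse 2 of B+A10-FMT was the highest of its group in 9 of the 10 and mouse 3 the lowest in 8. In B+Con-FMT, mouse 3 was the highest in 9 and mouse 1 the lowest in 9, and in B-sa mouse 1 was the lowest in 7. In B-sa mouse 3 was the highest in 5, and in Con-sa mouse 3 was the highest in 6, while mice 2 and 3 were each the lowest in 4. Genes of pancreatic acinar cells, which make digestive enzymes, also differed among these mice. All 13 acinar markers were detected in every mouse, and their summed RPKM was 10505, 10089 and 6776 in B+Con-FMT and 390, 671 and 8215 in B+A10-FMT. It was 2739, 834 and 386 in B-sa and 2570, 5816 and 1095 in Con-sa. The transplant mice with the most acinar RNA were mostly those with the least Marco and Cd209b, and B+A10-FMT mouse 3, the lowest of its group in 8 genes, was the only B+A10-FMT mouse in the acinar range of B+Con-FMT. For B+A10-FMT over B+Con-FMT all 13 had a negative difference (median log2 fold change -2.82) with no call by limma and 8 at an unadjusted p under 0.05, and they made up 0.0536% to 1.43% of summed RPKM.

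With the log2 acinar sum as a covariate, an alternative chosen after seeing the data, B+A10-FMT against B+Con-FMT gave 2 calls, Timd4 (0.55, limma adjusted p = 0.0363; 0.00153 to 0.0369 over the 22 alternatives) and Mertk (0.55, 0.0473; 0.00239 to 0.0558). In the same fit all genes called higher fell as well, from 960 to 222 of 12671. Siglec1 was then at 0.73 (limma adjusted p = 0.0815), Cd209b at 1.27 (0.127), Axl at 0.40 (0.0921), Mrc1 at 0.34 (0.279) and Marco at 0.33 (0.177). Over the 22 alternatives, limma's adjusted p ran from 0.00171 to 0.0815 for Siglec1, 0.0046 to 0.127 for Cd209b, 0.00672 to 0.869 for Axl, 0.0128 to 0.279 for Mrc1 and 0.0146 to 0.177 for Marco. Against B-sa the same covariate gave 4 calls, Siglec1, Mertk, Axl and Marco, where 661 of 12671 genes were called. Without B+A10-FMT mouse 3, 6 of the 10 genes were called against B+Con-FMT, where 545 of 12635 genes were called higher. What part the acinar RNA has in these differences was not tested beyond these fits.

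**Figure D4:**
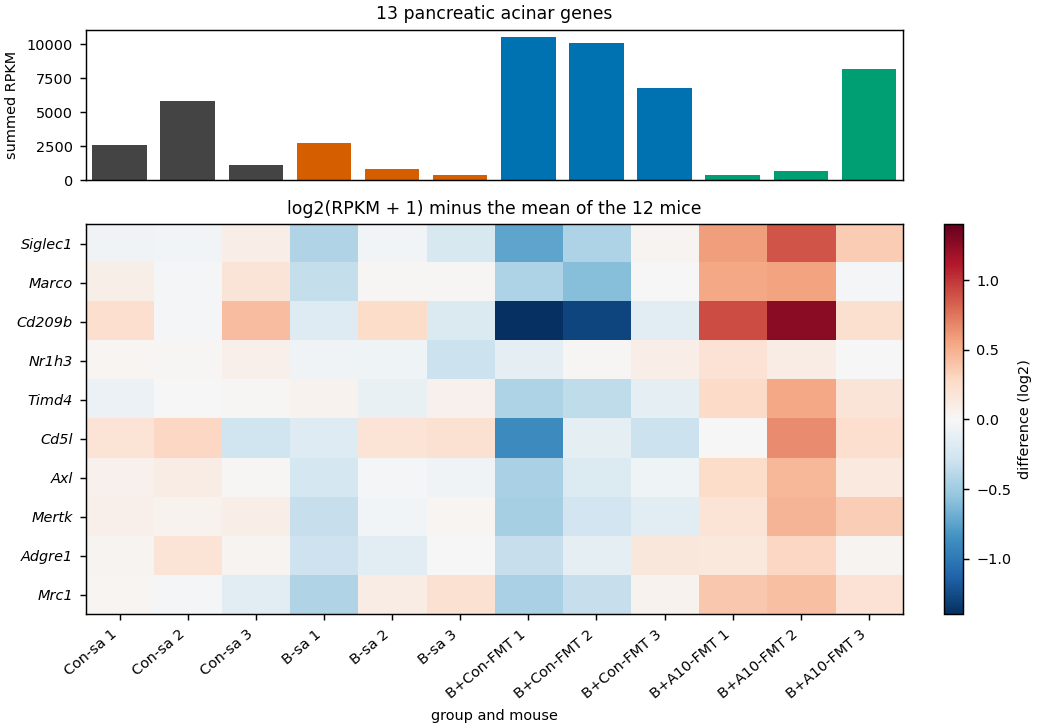
Top, summed RPKM of the 13 pancreatic acinar genes in each mouse (bars from 0, coloured by group). Bottom, log2(RPKM + 1) of the 10 genes minus the mean of the 12 mice (red higher, blue lower): B+A10-FMT mice 1 and 2 are the reddest columns and B+Con-FMT mice 1 and 2 the bluest, and the acinar sums of these 4 mice are 390, 671, 10505 and 10089.

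Markers of other macrophages and of vessels moved in the same direction between the transplant groups. Of 8 red pulp macrophage markers, 7 had the higher mean in B+A10-FMT and 6 were called higher against B+Con-FMT, among them the iron exporter Slc40a1 (141 against 87.7 RPKM, log2 fold change 0.68, limma adjusted p = 0.00399) and the heme-degrading enzyme Hmox1 (379 against 253 RPKM, 0.58, adjusted p = 0.0164). Their summed RPKM was 1153 to 1307 in B+A10-FMT, 909 to 1069 in B+Con-FMT, 924 to 1178 in B-sa and 965 to 1018 in Con-sa. In B+A10-FMT over B+Con-FMT 7.58% of all genes tested were called higher. Of the other lists, 4 of 6 monocyte markers tested and 5 of 7 endothelial markers were also called higher, with sums of 543 to 681 against 428 to 490 RPKM and 99.5 to 104 against 80.6 to 91.4 RPKM. Their part in the receptor differences was not tested. As markers of spleen, the 6 B lymphocyte genes summed to 1807 to 2002 RPKM in Con-sa against 1387 to 1663 in B-sa, and 4 of the 6 were called lower in B-sa (limma), against 1239 of all 12671 genes. The B lymphocyte sums ranged from 1617 to 1693 RPKM among the B+Con-FMT mice and from 1619 to 1684 among the B+A10-FMT mice. Globin genes held 23.3% to 32.4% of summed RPKM, but the mice differed in which beta globin gene carried it. Hbb-bs lay between 20290 and 45902 RPKM in the Con-sa mice but between 9.2 and 30.5 in the B-sa mice, and it read 36.4, 20930 and 4024 RPKM in B+Con-FMT and 8916, 13234 and 10623 in B+A10-FMT. Hbb-b1, a closely similar gene, went the other way between the saline groups, with 15053 to 37780 RPKM in the Con-sa mice and 71434 to 87642 in the B-sa mice. The beta globin genotypes of the mice are not given, so inherited and treatment differences cannot be told apart. The part of these beta globin differences in the receptor values was not tested. Neutrophil markers summed to 3703 to 6044 RPKM in B-sa and 2085 to 2160 in Con-sa, and adipocyte markers to 60.2 to 199 RPKM in the transplant groups and 184 to 518 in the saline groups. Kidney tubule markers, mostly Kap, summed to 75.6 to 117 RPKM in Con-sa and 0.83 to 3.33 in B+A10-FMT.

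Related pathways were followed in 6 gene lists, whose counts stand against 7.58% of all genes called higher in B+A10-FMT over B+Con-FMT, 5.27% called in B+A10-FMT against B-sa and 14.5% called in B-sa against Con-sa. Of 22 related lectin and scavenger receptors tested, 8 were called higher in B+A10-FMT over B+Con-FMT and none lower (median log2 fold change 0.28, against 0.05 for all genes). The 4 with the largest change were Siglech, a plasmacytoid dendritic cell lectin (5.89 RPKM in B+Con-FMT, 0.90, limma adjusted p = 0.000545), Siglece (0.82), Cd33 (0.60) and Clec4n, which encodes Dectin-2 (0.58). Against B-sa, 2 were higher, Clec4n (0.68) and Stab2, an endothelial scavenger receptor (0.52). In B-sa against Con-sa 7 were lower and none higher, with a median of -0.18. Cd209d, a neighbour of Cd209b, was at -1.15 there (3.34 against 8.62 RPKM, limma adjusted p = 0.0129), followed by Siglech (-0.76), Cd209a (-0.64) and Stab2 (-0.49).

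Next came the ligands and partners of the clearance receptors. Of 18 apoptotic cell clearance genes tested, 6 rose in B+A10-FMT over B+Con-FMT and none fell (median 0.15, against 0.05 for all genes). Gas6, the ligand of Axl and Mertk, was at 56.5 ± 4.93 against 43.4 ± 6.64 RPKM (SD, n = 3; log2 fold change 0.38, limma adjusted p = 0.0366). The engulfment receptor Lrp1 (0.48), its adaptor Gulp1 (0.48) and Sirpa, the receptor of the Cd47 signal (0.32), were called too. Against B-sa, Gas6 (0.43) and Sirpa (0.26) were higher. In B-sa against Con-sa the 1 call was Cd47, higher by 0.23, a smaller share than the 14.5% of all genes.

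Of 17 genes in the list of LXR partners and targets, 3 rose in B+A10-FMT over B+Con-FMT: the partner receptor Rxra (0.32), the LDL receptor ligase Mylip (0.31) and the sterol exporter Abcg1 (0.22). Against B-sa only Rxra (0.30) was called, a share near the 5.27% of all genes, and the list median was 0.05, as for all genes. In B-sa against Con-sa 6 were lower and 1 higher. The sterol exporter Abca1 fell most, to 7.82 RPKM (log2 fold change -0.51, limma adjusted p = 0.00466), with Mylip at -0.33, Abcg1 at -0.28 and the desaturase Scd2 at -0.27, while Nr1h3 itself was at -0.18 (limma adjusted p = 0.139).

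Macrophage growth and identity factors were the list with most calls against B-sa: 7 of 16 were higher in B+A10-FMT, and 7 were higher than in B+Con-FMT. Spic, the transcription factor of red pulp macrophages (0.50), Csf1r, the receptor of the macrophage growth factor (0.46), and the growth factor Csf1 (0.44) were among those higher than in B-sa. Csf1r (0.46), Spic (0.44) and Zeb2 (0.43) were among those higher than in B+Con-FMT. In B-sa against Con-sa Irf8 (-0.33) and Csf1 (-0.32) were among the genes called lower.

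Of 23 genes of the marginal zone niche and marginal zone B cells, 5 rose and 2 fell in B+A10-FMT over B+Con-FMT (median 0.08, against 0.05 for all genes). The cytokine Tnf was lower (5.14 against 7.54 RPKM, -0.47, limma adjusted p = 0.0367), and Ltbr, the lymphotoxin beta receptor (0.36), Notch2 (0.29) and the cannabinoid receptor Cnr2 (0.29) were higher. Ltb, the lymphotoxin ligand, was the other lower gene (-0.22). Against B-sa 5 were higher, led by the egress receptor S1pr1 (0.54), Notch2 (0.36), its ligand Dll1 (0.32) and Cd1d1 (0.28). In B-sa against Con-sa 7 were lower and none higher, led by S1pr1 (-0.49), Notch2 (-0.46), the kinase Map3k14 (-0.36) and Cd1d1 (-0.34).

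None of 20 interferon-stimulated genes was called in any of the 6 comparisons (limma; 3 had an unadjusted p under 0.05 for B+A10-FMT over B+Con-FMT, 6 over B-sa and 10 over Con-sa), although all 20 had a positive difference of B+A10-FMT over B+Con-FMT, with a median log2 fold change of 0.45. Siglec1 is an interferon-inducible gene and shared this direction, as did all 10 genes. A part of interferon in the Siglec1 difference was not tested.

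**Figure D5:**
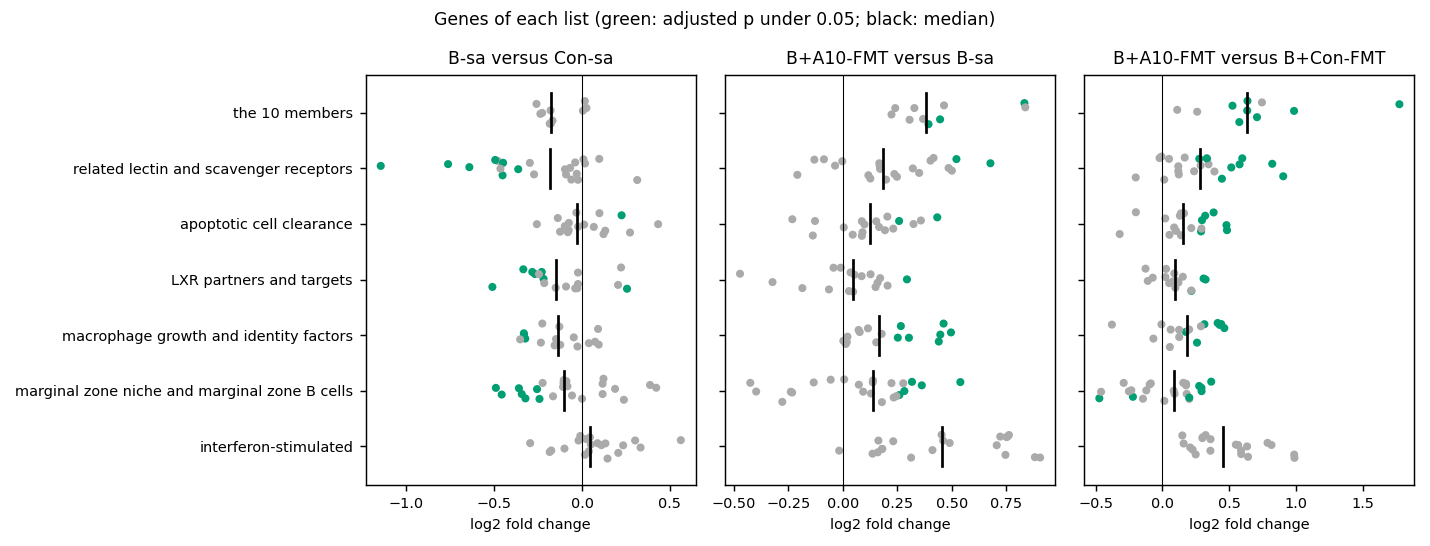
Log2 fold changes (horizontal axes, scales differ between panels) of the 10 genes and of the genes of 6 lists in 3 comparisons. Each dot is a gene, green where adjusted p was under 0.05, and the black line is the list median, which for the 10 genes was -0.18, 0.38 and 0.63 from left to right.

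The genes whose pattern over the 12 mice was most like that of the 3 marginal zone genes were taken by Pearson's r of log2(RPKM + 1), a description since the mice share groups. For Siglec1 they were Slc11a1 (a metal transporter of the phagosome, r = 0.978), Fzd1 (0.972), Hsd11b1 (0.966), Sema6d (0.961) and Hcar2 (0.960). For Marco they were Sesn2 (0.950), 2310022B05Rik (0.949), Adgre4 (0.946), Timp3 (0.946) and Arhgap6 (0.929). Spearman's rho was lower for Adgre4 (0.650) and Timp3 (0.657) than for the other 3 (0.867 to 0.921). For Cd209b they were Abat (0.951), Pfkfb4 (0.948), Inf2 (0.939), Fbn1 (0.934) and Wrn (0.933). No gene stood in more than 1 of these lists.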

How the data were processed

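The authors extracted spleen RNA, enriched polyadenylated RNA, sequenced it and deposited RPKM per RefSeq transcript, 1 table per mouse. The paper names SOAPaligner, the submitters' processing notes name HISAT, Bowtie2 and mm10 (GRCm38), and this was not resolved. RPKM of 60654 transcripts were summed to 18221 genes by gene identifier, 18101 of which matched a RefSeq symbol. Read counts were not used here; the steps of low values give about 14500000 to 15600000 mapped reads per mouse. The main test was limma 3.58.1 (R 4.3.3; trend and robust) on log2(RPKM + 1) of 12671 genes at RPKM 1 or higher in 3 or more mice, fitted over all 12 mice with group as the only term, with Benjamini-Hochberg adjustment and a threshold of 0.05. The authors' DEGseq test needs read counts and was not used. Each gene of interest was also tested by an exact permutation test (SciPy 1.17.1). The limma script was tested on simulated data. Alternatives changed the pseudocount, filter, scaling, transcripts, samples and replicate term.

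The 10 genes, the gene lists and the tests were chosen with earlier results of these data known. In the lists, genes called in 3 comparisons were named, at most the 4 of largest change per list and comparison, and the 5 genes most like Siglec1, Marco and Cd209b. A gene that this rule names in the growth and identity list is not reported here. Genes named beyond that rule (Nr1h3 and Ltb beside the lists, and Slc40a1, Hmox1, Kap, Hbb-bs and Hbb-b1 among the markers) were chosen after their values were seen. Whether the 3 mice of a group were housed together is not given, and donor content was pooled by group. The p-values therefore measure the spread between these mice and not between donors.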

Additional observations from a re-analysis of the deposited data

How the results depend on the processing

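Over 22 alternatives, the 3 comparisons with no call among the 10 genes (B-sa against Con-sa, B+Con-FMT against B-sa, B+A10-FMT against Con-sa) had 0 in each (limma). For B+A10-FMT against B-sa the 3 calls became 1 with no filter and with the 2 groups alone, 0 with curated transcripts only and with the top transcript only, and 0 to 4 without a mouse. For B+A10-FMT against B+Con-FMT the 7 calls became 4 with the 2 groups alone and with curated transcripts, 2 with the acinar covariate and 2 to 8 without a mouse. For B+Con-FMT against Con-sa the 1 call became 0 with no filter, median-of-ratios scaling, curated transcripts, the top transcript and the acinar covariate, 2 with equal totals outside the globin genes, and 0 to 3 without a mouse. The causes were not tested. Same-numbered mice showed no steady common deviation (correlations -0.37 to 0.30), but 3 mice a group cannot exclude a shared effect of the number. The main fit did not pair them, and with the replicate block the counts were 0, 0, 3, 5, 0 and 1. Under the block, limma's adjusted p for B+A10-FMT against B+Con-FMT was 0.0745 for Marco, 0.0539 for Cd209b and 0.0576 for Mrc1, which lost the call, and 0.0418 for Cd5l, which gained it. Of single-gene values under the alternatives, 1205 kept direction and call, 80 lost the call, 7 gained it and 28 changed sign. The number of all genes called moved by over 1.5 times too. At its lowest without 1 mouse it went from 1312 to 218 for B+A10-FMT against B+Con-FMT and from 668 to 106 against B-sa (both without B+A10-FMT mouse 2), from 1838 to 513 for B-sa against Con-sa and from 107 to 19 for B+Con-FMT against B-sa (both without B-sa mouse 2), from 1124 to 329 for B+Con-FMT against Con-sa (without Con-sa mouse 1) and from 52 to 1 for B+A10-FMT against Con-sa (without B+A10-FMT mouse 1). It rose to 466 for B+Con-FMT against B-sa without B-sa mouse 1. With curated transcripts and with the top transcript, in that order, it was 741 and 547 for B-sa against Con-sa, 25 and 23 for B+Con-FMT against B-sa, 203 and 111 for B+A10-FMT against B-sa, 546 and 315 against B+Con-FMT, 1 and 1 against Con-sa, and 382 and 258 for B+Con-FMT against Con-sa. With the acinar covariate it was 1005 for B-sa against Con-sa, 39 for B+Con-FMT against B-sa and 300 for B+A10-FMT against B+Con-FMT. With the 2 groups alone it was 1003 for B-sa against Con-sa, 32 for B+Con-FMT against B-sa and 184 for B+A10-FMT against B-sa. For B+Con-FMT against B-sa it was 71 with no filter and 180 with equal totals. For B+A10-FMT it was 417 against B-sa with the replicate block and 29 against Con-sa with RPKM at least 1 in all 12 mice. Scaling moved the split of all genes called. B+A10-FMT against B+Con-FMT had 960 higher and 352 lower, 567 and 690 under median-of-ratios, and 2100 and 239 under equal totals outside globin. B+A10-FMT against B-sa had 507 and 161, and 280 and 353 under median-of-ratios. B+Con-FMT against Con-sa had 292 and 832, then 556 and 550 under median-of-ratios and 199 and 1637 under equal totals, and B-sa against Con-sa 599 and 1239, then 950 and 796. Depth is only estimated, so no counting interval was given, and 3 mice a group limit every call.

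Among the log2 fold changes that turned sign, those of Axl in B+A10-FMT against B-sa and against B+Con-FMT had been called, and the others had not. In B-sa against Con-sa, the acinar covariate gave -0.020 for Timd4 and -0.099 for Mrc1, and leaving out a mouse gave -0.006 to 0.080 for Timd4, -0.167 to 0.134 for Cd5l and -0.106 to 0.208 for Mrc1. In B+Con-FMT against B-sa, the acinar covariate gave 0.145 for Siglec1, 0.193 for Marco, 0.018 for Axl and 0.059 for Mrc1, curated transcripts gave -0.291 for Nr1h3 and 0.004 for Axl, the top transcript gave -0.399 for Nr1h3, and equal totals gave -0.002 for Adgre1. Leaving out a mouse there gave -0.356 to 0.032 for Siglec1 and -0.082 to 0.159 for Adgre1. Curated transcripts put Axl at -0.068 against B-sa, -0.072 against B+Con-FMT and -0.090 against Con-sa in B+A10-FMT, and Nr1h3 at -0.132 against Con-sa. The top transcript put Nr1h3 at -0.207 against B-sa and -0.278 against Con-sa. In B+Con-FMT against Con-sa, Nr1h3 ran from -0.095 to 0.011 without a mouse.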
